A study of Homo sapiens with 12 samples.

Results

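MiR-331 is a miRNA hairpin whose 5p and 3p arms were counted under separate names, hsa-miR-331-5p and hsa-miR-331-3p (below without the species prefix), 2 of the 1611 miRNA names listed for HEK293T and of the 1854 listed for HCT116. HEK293T is a human embryonic kidney line and HCT116 a human colorectal carcinoma line, and all cells carried a rescue form of DICER, the nuclease that cuts hairpin precursors. The groups were HEK293T with DICER AA, HEK293T with DICER ΔdsRBD, HEK293T with DICER WT, and HCT116 with DICER AA, DICER ΔdsRBD and DICER WT, with 2 libraries each and 12 in all. In ΔdsRBD the double-stranded RNA-binding domain is deleted, and the labels do not say what was changed in AA. No source used here gives the amount of each DICER form, any treatment or whether the cells are single clones, so the form of DICER and its amount cannot be told apart. The hairpin was chosen by measured values, the fall of its 3p arm with the altered forms and the share of its 5p arm in each library, so its values are a description and no p is given for either arm.

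DICER removes the loop of a hairpin and leaves a duplex of the 5p and 3p arms. An Argonaute protein then keeps one arm as the guide that finds target mRNAs through its seed, and the other arm is usually broken down. The 3p arm is the guide most often studied for miR-331, and it is known to repress ERBB2, the receptor tyrosine kinase HER2. Read counts per name do not tell cutting, loading and decay apart.

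Both mature arms were taken from RefSeq (GRCh38.p14, chromosome 12, plus strand) and are shown 5′ to 3′ with the seed, bases 2 to 8, in capitals, since the seed sets which mRNAs each arm can pair with.
miR-331-5p: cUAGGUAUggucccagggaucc
miR-331-3p: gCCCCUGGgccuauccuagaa
MIR331 lies on chromosome 12 from 95308420 to 95308513 in GENCODE on GRCh38, outside any other annotated gene and 5629 bases downstream of VEZT, and the next miRNA gene on that strand, MIR3685, starts 1409 bases further on. The 5p arm spans 95308445 to 95308466 and the 3p arm 95308480 to 95308500, with 13 bases between them. The seeds of the arms differ from each other, and 0 of the other mature entries (2545 in all) share either of them. MiR-6801-3p and miR-6810-3p share bases 2 to 7 of miR-331-3p, and each had at most 12 reads in any library. MiR-3685 was listed for HEK293T only, with at most 2 reads in a library.

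The same arms are shown again with the bases left unpaired in capitals, as predicted for the duplex of the arms alone by RNAcofold, because the unpaired end lies where DICER cuts.
miR-331-5p: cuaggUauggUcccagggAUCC
miR-331-3p: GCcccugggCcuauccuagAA
The predicted duplex had 16 base pairs and a free energy of -27.0 kcal/mol. At the DICER end the last 4 bases of the 5p arm and the first 2 bases of the 3p arm were unpaired, and at the other end the 3p arm had a 2-base overhang. Such a DICER end, with at least 2 unpaired bases on 3p and at least 4 on 5p, was predicted for 21 of 145 hairpins (14.5%) with arm values and both sequences in HEK293T and for 29 of 183 (15.8%) in HCT116. The 3p arm starts with G, as did 11.7% of the 3p arms of these hairpins in HEK293T and 8.20% in HCT116. The 5p arm starts with C, as did 15.2% of their 5p arms in HEK293T and 16.9% in HCT116. The 13 bases between the arms are few, against medians of 16 in both lines, with 15.2% of the hairpins in HEK293T and 18.0% in HCT116 having as few or fewer.

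Libraries held 1059778 to 3552613 miRNA reads in HEK293T and 824987 to 4498886 in HCT116, with the lowest depths in ΔdsRBD. Levels are given as CPM, counts relative to the library total, scaled within a line by TMM, which sets the typical miRNA equal between libraries. A count of 3 reads was 0.877 to 2.65 CPM in HEK293T and 0.755 to 3.10 CPM in HCT116. Of 6 miRNAs linked to colorectal epithelium, miR-31-5p made up most of the summed level, which was 32123 to 62750 CPM in HCT116, lowest in ΔdsRBD, and 7819 to 8938 CPM in HEK293T. With WT, miR-192-5p, miR-194-5p and miR-215-5p were lower in HCT116 (158, 279 and 1.86 CPM) than in HEK293T (644, 1130 and 264 CPM). MiR-31-5p, miR-200c-3p and miR-141-3p were higher in HCT116 (61637, 48.8 and 71.6 CPM) than in HEK293T (5864, 31.3 and 23.4 CPM). These CPM are scaled within each line. Of 13 miRNAs of blood, muscle, liver, neurons, endothelium and fibroblasts, miR-206 was not listed for either line. The summed level of the other 12 was 466 to 782 CPM in HEK293T and 595 to 2764 CPM in HCT116, lowest in ΔdsRBD in both lines. Among them miR-223-3p and miR-1-3p had at most 18 reads in any library, and miR-126-3p, miR-142-3p and miR-145-5p made up most of the sum in HCT116. MiR-124-3p, a neuronal miRNA, averaged 110 CPM with AA and 347 CPM with ΔdsRBD in HEK293T, against 73.1 CPM with WT. The markers are themselves DICER products, and their part in the results was not tested. In such bulk samples fewer cells with an RNA and less of it per cell cannot be told apart.

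With ΔdsRBD miR-331-3p was nearly emptied in both lines, and with AA it was lowered by less. MiR-331-5p stayed within 1.5-fold of WT in 3 of the 4 comparisons with WT on the TMM scale and was lower in the fourth, ΔdsRBD in HEK293T. The comparisons of a line share its WT libraries.

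**Figure D1:**
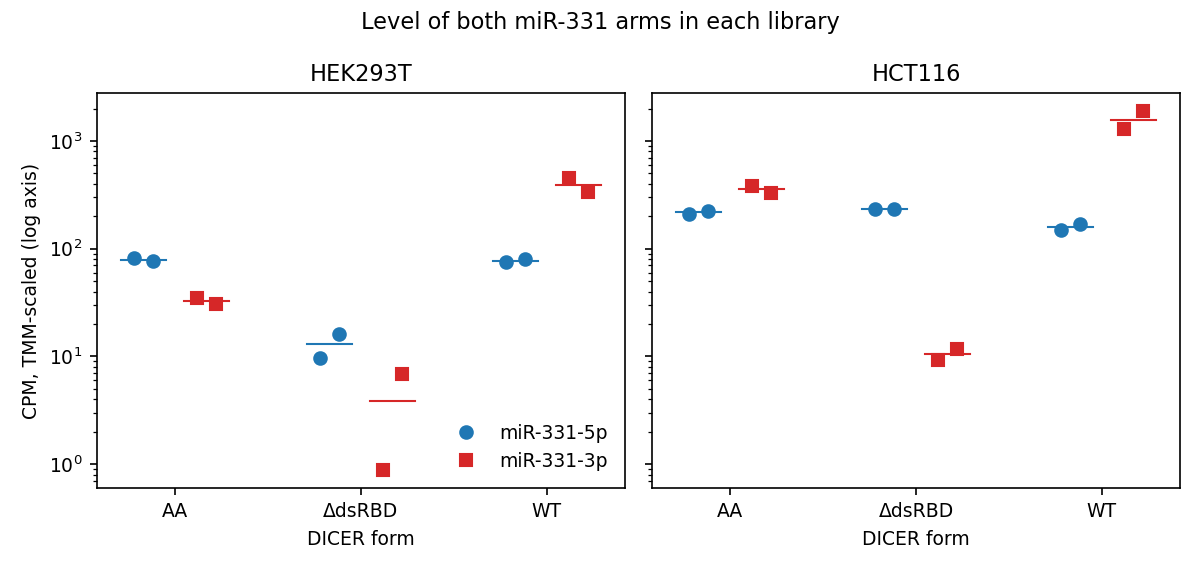
TMM-scaled CPM (log axis) of miR-331-5p (blue circles) and miR-331-3p (red squares) in each of the 12 libraries, by DICER form in HEK293T (left) and HCT116 (right); short lines are means of 2 libraries. The 3p arm stands above the 5p arm in all 4 WT libraries and below it in all 4 ΔdsRBD libraries.

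In HEK293T miR-331-3p had 1 and 9 reads with ΔdsRBD, against 1276 and 1148 with WT. These were 0.883 and 6.89 CPM with ΔdsRBD, against 452 and 336 CPM with WT. The groups did not overlap, and relative to their mean the replicates with ΔdsRBD differed by more than those with WT, with 1 library below the level of 3 reads. The means were 3.89 ± 4.25 CPM with ΔdsRBD and 394 ± 82.4 CPM with WT (SD, n = 2 each), and the log2 fold change was −6.57 ± 0.43 (SE). It was −5.82 without ΔdsRBD replicate 1 and −8.82 without ΔdsRBD replicate 2. From the summed reads, 10 with ΔdsRBD and 2424 with WT, the level was 94.7-fold lower, with a counting interval (95%, exact) of 51.4 to 198-fold. Intervals of this kind cover counting error only.

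In HCT116 miR-331-3p had 9 and 20 reads with ΔdsRBD, against 5097 and 6248 with WT, which were 9.29 and 11.6 CPM with ΔdsRBD, against 1283 and 1881 CPM with WT. The replicates with ΔdsRBD lay close together and far below both WT libraries. The log2 fold change was −7.20 ± 0.28 (SE), and the summed reads gave a 144-fold lower level with a counting interval of 101 to 216-fold. The means with ΔdsRBD were 0.987% of WT in HEK293T and 0.660% in HCT116.

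In the order of log2 fold changes with ΔdsRBD miR-331-3p stood 12th from the lowest of 626 tested names in HEK293T and 6th of 795 in HCT116. Of the tested names 39.6% in HEK293T and 34.1% in HCT116 were called lower by edgeR (adjusted p under 0.05), and 46.5% in HEK293T and 42.3% in HCT116 were lower with no overlap of the 2 groups of libraries. Because these contrasts chose the hairpin, nothing is read from its standing. Among the 239 names with at least 100 CPM with WT in HEK293T it came after miR-1180-3p (log2 fold change −7.69), miR-615-3p (−7.58) and miR-375 (−6.68), and before miR-93-5p (−6.42), miR-1269b (−6.13) and miR-345-5p (−6.12). Among the 259 such names in HCT116 it came after miR-615-3p (−7.69) and miR-3200-3p (−7.36), and before miR-574-3p (−6.48), miR-1180-3p (−5.55) and miR-27b-3p (−5.51). With ΔdsRBD, miR-1180-3p and miR-615-3p averaged 2.03 and 2.09 CPM in HEK293T, and miR-615-3p and miR-3200-3p each averaged 1.16 CPM in HCT116. These means were under the level of 3 reads in the ΔdsRBD libraries, so their fold changes and this order rest on few reads. MiR-375 regulates insulin secretion in pancreatic islets, and miR-93-5p is an abundant member of the miR-17 family. MiR-615-3p, encoded in the HOXC gene cluster, and miR-1180-3p stood near miR-331-3p in both lines.

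With AA the 3p arm was also below WT, by less than with ΔdsRBD. In HEK293T it had 95 and 43 reads with AA, which were 35.2 and 30.8 CPM, against 452 and 336 CPM with WT. The AA libraries were alike and lay well below both WT libraries. The log2 fold change was −3.56 ± 0.31 (SE), 11.8-fold lower, and AA left 8.38% of the WT mean. In HCT116 it had 1167 and 1126 reads with AA, which were 384 and 330.4 CPM, against 1283 and 1881 CPM with WT. Here too the groups did not overlap, with a log2 fold change of −2.15 ± 0.19 (SE) that left 22.6% of the WT mean.

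The contrasts with AA also chose the hairpin, so nothing is read from its low standing among the names. Called lower by edgeR were 15.2% of names in HEK293T and 6.16% in HCT116, and lower with no overlap were 36.4% in HEK293T and 28.3% in HCT116. These shares hold on the TMM scale and depend on scaling and libraries. In HEK293T edgeR called 95 names lower and 39 higher by TMM, 82 lower and 57 higher with DESeq2 size factors, 41 lower and 129 higher with upper-quartile factors, 234 lower and 7 higher by spike-in TMM, and 36 lower without AA replicate 2. In HCT116 it called 49 lower and 10 higher by TMM, 23 lower and 22 higher with library totals, 23 lower and 11 higher with upper-quartile factors, and 197 lower and 1 higher by spike-in TMM. Leaving out AA replicate 1 gave 9 lower in HCT116, and leaving out AA replicate 2 gave 19. MiR-331-3p stood 4th from the lowest of 626 in HEK293T and 9th of 795 in HCT116. Among names with at least 100 CPM with WT, miR-484, miR-99b-5p and miR-331-3p held the 3 lowest places in both lines. In HEK293T miR-484 was at −6.19 and miR-99b-5p at −4.29, and let-7e-5p (−3.55), miR-151b (−2.73) and miR-151a-5p (−2.47) followed. In HCT116 miR-484 was at −4.07 and miR-99b-5p at −2.04, and miR-3200-3p (−1.46) and miR-361-3p (−1.09) followed. MiR-484 is made from a capped precursor without DROSHA, and miR-99b-5p and let-7e-5p come from 1 cluster. The guides that share the lowest places with miR-331-3p under AA are shown with their seeds in capitals, and the 3 seeds differ.
miR-484: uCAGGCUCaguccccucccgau
miR-99b-5p: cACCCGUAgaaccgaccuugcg
MiR-484 lies on chromosome 16 from 15643301 to 15643322 and miR-99b-5p on chromosome 19 from 51692618 to 51692639, both on the plus strand of GRCh38.p14.

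**Figure D2:**
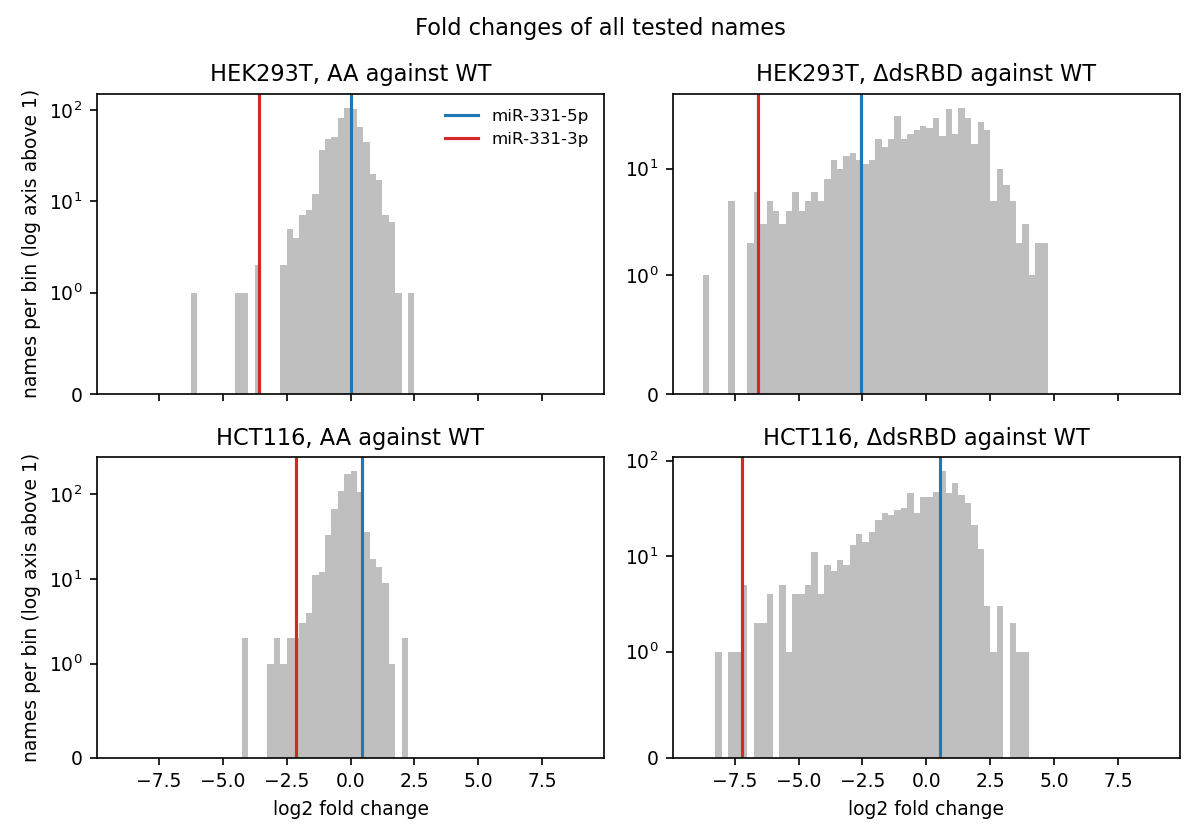
Distribution of log2 fold changes over all tested names (626 in HEK293T, top; 795 in HCT116, bottom) for AA against WT (left) and ΔdsRBD against WT (right), with names per bin on a log axis above 1; vertical lines mark miR-331-5p (blue) and miR-331-3p (red). The red line is at −3.56 and −6.57 in HEK293T and at −2.15 and −7.20 in HCT116, at the low edge of each distribution, and the blue line is at −2.57 with ΔdsRBD in HEK293T.

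MiR-331-3p stood higher with AA than with ΔdsRBD in both lines. It averaged 33.0 ± 3.10 CPM with AA and 3.89 ± 4.25 CPM with ΔdsRBD in HEK293T, a log2 difference of 3.01 ± 0.50 (SE). In HCT116 it averaged 357 ± 37.9 CPM with AA and 10.4 ± 1.63 CPM with ΔdsRBD, a log2 difference of 5.05 ± 0.27 (SE). The groups did not overlap in either line, as was so for higher levels with AA in 43.8% of names in HEK293T and 39.7% in HCT116.

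The 5p arm was the less abundant arm with WT in both lines. In HEK293T miR-331-5p had 11 and 21 reads with ΔdsRBD, against 213 and 273 with WT, which were 9.71 and 16.1 CPM with ΔdsRBD, against 75.5 and 79.8 CPM with WT. Both ΔdsRBD libraries lay below both WT libraries, as was so for 46.5% of names in that comparison. Its log2 fold change was −2.57 ± 0.30 (SE), 5.93-fold lower, and 127th from the lowest of 626. In HCT116 it had 224 and 403 reads with ΔdsRBD, which were 231 and 234 CPM, against 150 and 170 CPM with WT. There the ΔdsRBD libraries were higher than the WT libraries, with a log2 fold change of 0.54 ± 0.15 (SE). Higher levels with no overlap were found for 40.3% of names in that comparison. Scaled to the spike-ins the sign turned, to −1.26.

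With AA miR-331-5p in HEK293T was at 81.5 and 76.7 CPM, against 75.5 and 79.8 CPM with WT. These groups overlapped, and the log2 fold change was 0.03 ± 0.23 (SE). In HCT116 it was at 212 and 226 CPM with AA, against 150 and 170 CPM with WT, without overlap, as in 25.5% of names higher with AA. The log2 fold change was 0.45 ± 0.14 (SE) and became −0.13 when scaled to the spike-ins. Between the altered forms, the 5p arm averaged 79.1 ± 3.41 CPM with AA and 12.9 ± 4.50 CPM with ΔdsRBD in HEK293T, a log2 difference of 2.60 ± 0.30 (SE). In HCT116 it averaged 219 ± 9.95 CPM with AA and 232 ± 1.70 CPM with ΔdsRBD, a log2 difference of −0.09 ± 0.14 (SE). These groups did not overlap, as was so for 38.6% of names lower with AA there. This small difference depends on the scaling. With TMM over all 12 libraries the 5p arm in HCT116 averaged 218 CPM with AA and 213 CPM with ΔdsRBD, and the groups overlapped. Per 1000 spike-in reads it was higher with AA, at 42.7 and 44.5, than with ΔdsRBD, at 17.3 and 19.3.

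The ratio of the arms needs no scaling, because both are counted in the same library. The 5p arm was the major arm with ΔdsRBD in both lines and with AA in HEK293T, and the minor arm with WT. With AA in HCT116 its share was higher than with WT but it was still the minor arm. In HEK293T 5p reads were 91.7% and 70.0% of miR-331 reads with ΔdsRBD, with exact 95% intervals of 61.5 to 99.8% (12 reads) and 50.6 to 85.3% (30 reads). They were 69.8% and 71.3% with AA (intervals 64.4 to 74.9% and 63.4 to 78.4%), against 14.3% and 19.2% with WT (12.6 to 16.2% and 17.2 to 21.4%). Shares with both altered forms thus lay above both WT libraries, and AA and ΔdsRBD overlapped. Of all hairpins, 42.8% moved toward 5p without overlap with ΔdsRBD in HEK293T and 26.1% with AA.

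In HCT116 5p reads were 35.5% and 40.6% with AA (intervals 33.3 to 37.8% and 38.4 to 42.8%). They were 96.1% and 95.3% with ΔdsRBD (92.8 to 98.2% and 92.8 to 97.1%), against 10.5% and 8.29% with WT (9.70 to 11.3% and 7.65 to 8.97%). No 2 groups of HCT116 overlapped, and AA stood between ΔdsRBD and WT. Of all hairpins, 58.5% moved toward 5p without overlap with ΔdsRBD in HCT116 and 29.3% with AA, and 58.1% stood further toward 3p with AA than with ΔdsRBD. The mean share was 38.1 ± 3.57% with AA and 95.7 ± 0.612% with ΔdsRBD, a difference of −57.7 percentage points. In HEK293T it was 70.6 ± 1.06% with AA and 80.8 ± 15.3% with ΔdsRBD (SD, n = 2 each).

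**Figure D3:**
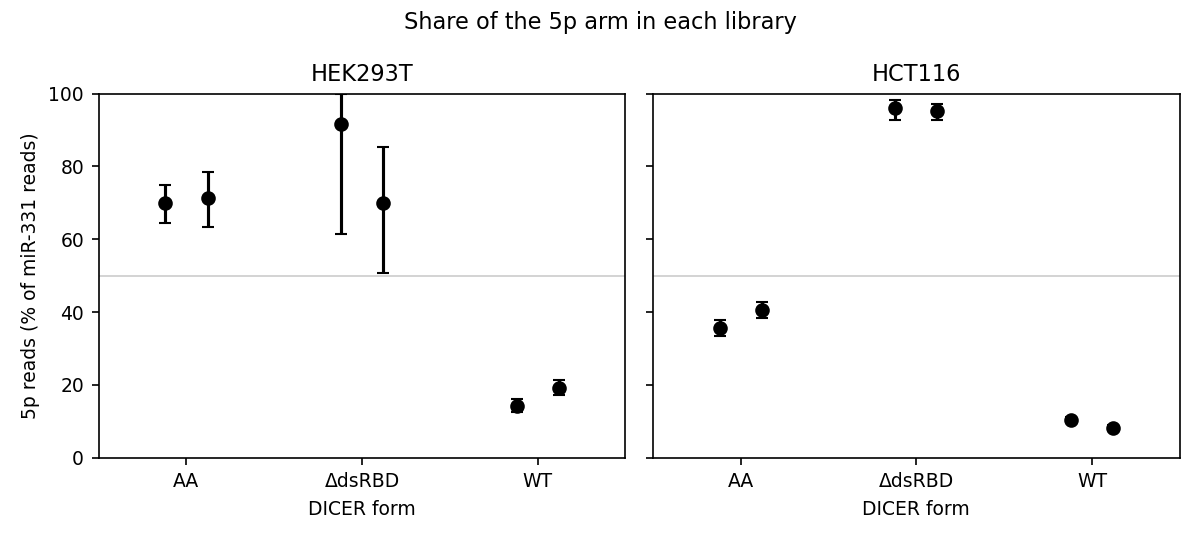
Share of 5p reads among all miR-331 reads (percent) in each library by DICER form, in HEK293T (left) and HCT116 (right); bars are exact 95% binomial intervals for counting error and the grey line marks 50%. With AA the HEK293T libraries are at 69.8% and 71.3% and the HCT116 libraries at 35.5% and 40.6%, and the 4 WT libraries are at 19.2% or less.

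As a log2 ratio of 5p to 3p reads, with 0.5 reads added to each arm, the change with ΔdsRBD was 4.38 ± 0.92 (SE) in HEK293T and 7.71 ± 0.23 in HCT116, where the ratio was 209-fold higher. In HEK293T it was 3.50 without ΔdsRBD replicate 1 and 5.26 without ΔdsRBD replicate 2. With AA it was 3.58 ± 0.26 in HEK293T and 2.57 ± 0.24 in HCT116. The change with ΔdsRBD ranked 6th toward 5p of 180 hairpins in HEK293T and 1st of 229 in HCT116, and with AA 1st of 180 and 3rd of 229. Medians over all hairpins were 0.37 with ΔdsRBD in HEK293T, 0.80 with ΔdsRBD in HCT116, 0.01 with AA in HEK293T and 0.07 with AA in HCT116. By edgeR's arm-use test 30.0% of hairpins moved toward 5p with ΔdsRBD in HEK293T and 46.7% in HCT116, and with AA 5% did so in HEK293T and 8.73% in HCT116. These contrasts also chose the hairpin, so its ranks are a description.

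Hairpins with changes next in size differed between the comparisons. With ΔdsRBD in HCT116 they were miR-25 (7.50), miR-3200 (7.22) and miR-141 (6.81), whose 5p shares were 62.6%, 94.7% and 75.0% with ΔdsRBD, against 0.925%, 10.2% and 2.29% with WT. In HEK293T miR-338 (4.74), miR-101 (4.45) and miR-1277 (4.44) came before miR-331, and miR-505 (3.90), miR-454 (3.90) and miR-561 (3.89) after it. With AA in HEK293T the next were miR-5001 (2.11), miR-324 (2.00) and miR-561 (1.89). MiR-324 is known for alternative DICER cutting, and its 5p share was 79.9% with AA and 49.9% with WT. With AA in HCT116 miR-561 (3.90) and miR-3653 (2.58) came before miR-331, and miR-6765 (2.48), miR-584 (2.15) and miR-5582 (2.04) after it. MiR-561 was near miR-331 in 3 of the 4 orders, but its 5p arm was already the major arm with WT, at 90.6% in HEK293T and 86.4% in HCT116.

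**Figure D4:**
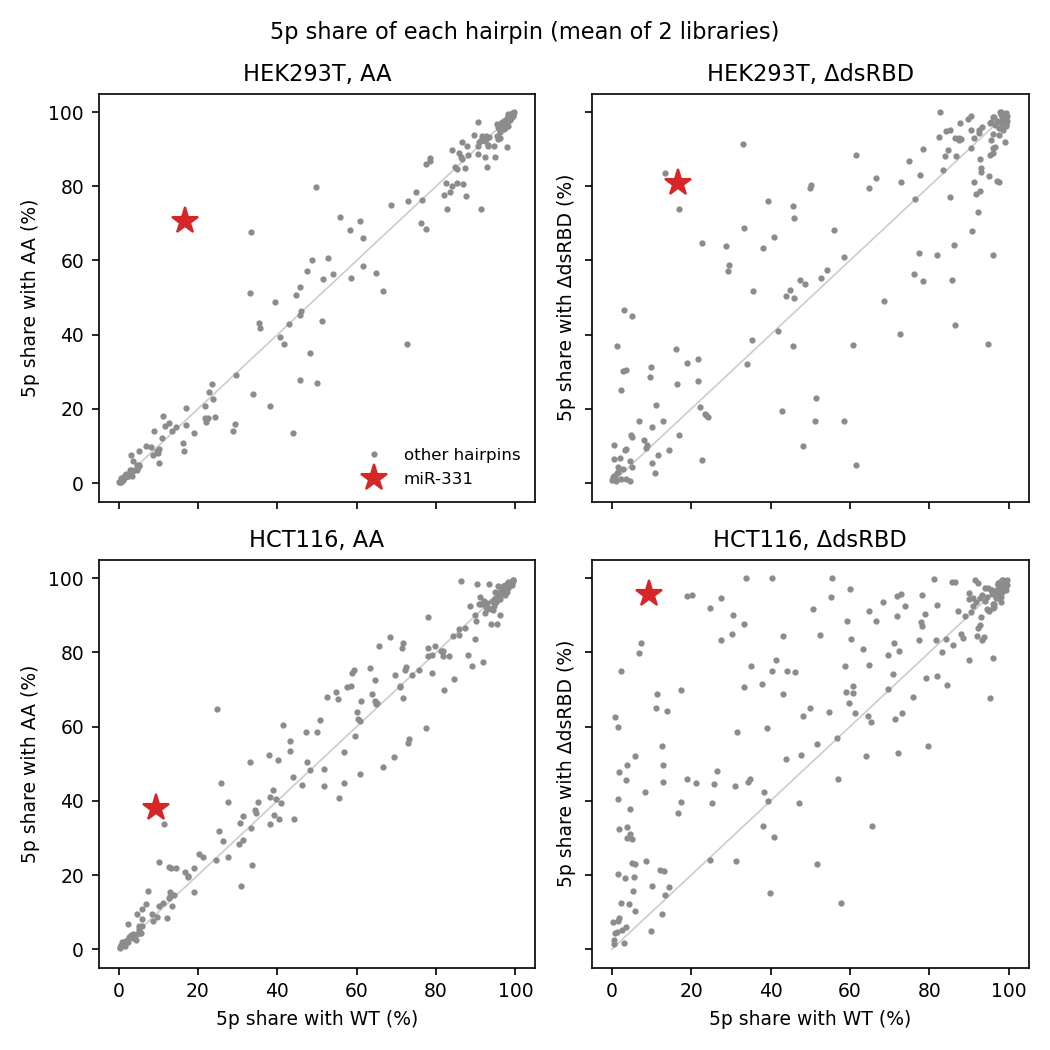
Mean 5p share (percent) of each hairpin with WT (x axis) against AA (left) and ΔdsRBD (right) in HEK293T (top, 180 hairpins) and HCT116 (bottom, 229 hairpins); the red star is miR-331, grey points are the other hairpins and the line marks equal shares. MiR-331 lies far above the line in each panel, at 70.6% and 80.8% in HEK293T and at 38.1% and 95.7% in HCT116, against 16.8% and 9.39% with WT.

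The predicted unpaired DICER end that miR-331 has went with different medians of the ratio change. With ΔdsRBD the hairpins with such an end had a median log2 ratio change of 0.71 (21 hairpins) in HEK293T and 2.24 (29 hairpins) in HCT116, against 0.15 (124 hairpins) and 0.77 (154 hairpins) for the others. With AA the medians were 0.08 and 0.25, against −0.07 and 0.07 for the others. The feature was set by the predicted end of miR-331, which is itself among the 21 and 29 hairpins. It was chosen after the values of miR-331 were seen, and the difference was not tested.

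The total of both arms was also lower with both altered forms. In HEK293T it was 117 and 108 CPM with AA and 10.6 and 23.0 CPM with ΔdsRBD, against 527 and 415 CPM with WT. In HCT116 it was 596 and 556 CPM with AA and 241 and 245 CPM with ΔdsRBD, against 1433 and 2051 CPM with WT. Both altered forms thus lay below WT in every library, and ΔdsRBD lay below AA.

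Each library held reads of 30 spike-in RNAs, which give a scale that does not depend on the other miRNAs. Per 1000 spike-in reads, miR-331-3p had 1.93 and 1.32 reads with AA and 0.0275 and 0.200 with ΔdsRBD in HEK293T, against 37.8 and 26.1 with WT. In HCT116 it had 77.5 and 65.2 with AA and 0.695 and 0.956 with ΔdsRBD, against 310 and 565 with WT. The order of the forms was that of the TMM scale. For miR-331-5p the values in HEK293T were 4.47 and 3.29 with AA and 0.302 and 0.466 with ΔdsRBD, against 6.30 and 6.22 with WT. In HCT116 they were 42.7 and 44.5 with AA and 17.3 and 19.3 with ΔdsRBD, against 36.3 and 51.1 with WT.

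On the spike-in scale, then, the 5p arm was lower with ΔdsRBD in both lines, AA overlapped WT in HCT116, and AA was lower than WT in HEK293T. On this scale the median of all names was −1.46 with ΔdsRBD and −0.68 with AA in HEK293T, and −1.77 with ΔdsRBD and −0.59 with AA in HCT116 (log2, spike-in TMM), and within 0.11 of 0 on the TMM scale. Called names in HEK293T were 67 higher and 375 lower with ΔdsRBD by spike-in TMM, against 225 and 248 by TMM. In HCT116 they were 7 higher and 592 lower with ΔdsRBD, against 223 and 271 by TMM, and with library totals 317 higher and 198 lower, at a median of 0.52. Upper-quartile factors moved the median of all names to 0.36 with ΔdsRBD and 0.34 with AA in HEK293T, and to 0.27 with ΔdsRBD and 0.11 with AA in HCT116. The spike-ins also moved among themselves: with ΔdsRBD in HEK293T 17 of 30 were called by edgeR, with changes of up to 1.63 (log2). With AA in HEK293T 0 of 30 were called by edgeR and 7 had an unadjusted p under 0.05. In HCT116 0 of 30 were called by edgeR with ΔdsRBD or AA, and 0 had an unadjusted p under 0.05, with changes of up to 1.19 and 2.09. No source used here gives the amount of spike-in RNA or the step at which it went in.

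**Figure D5:**
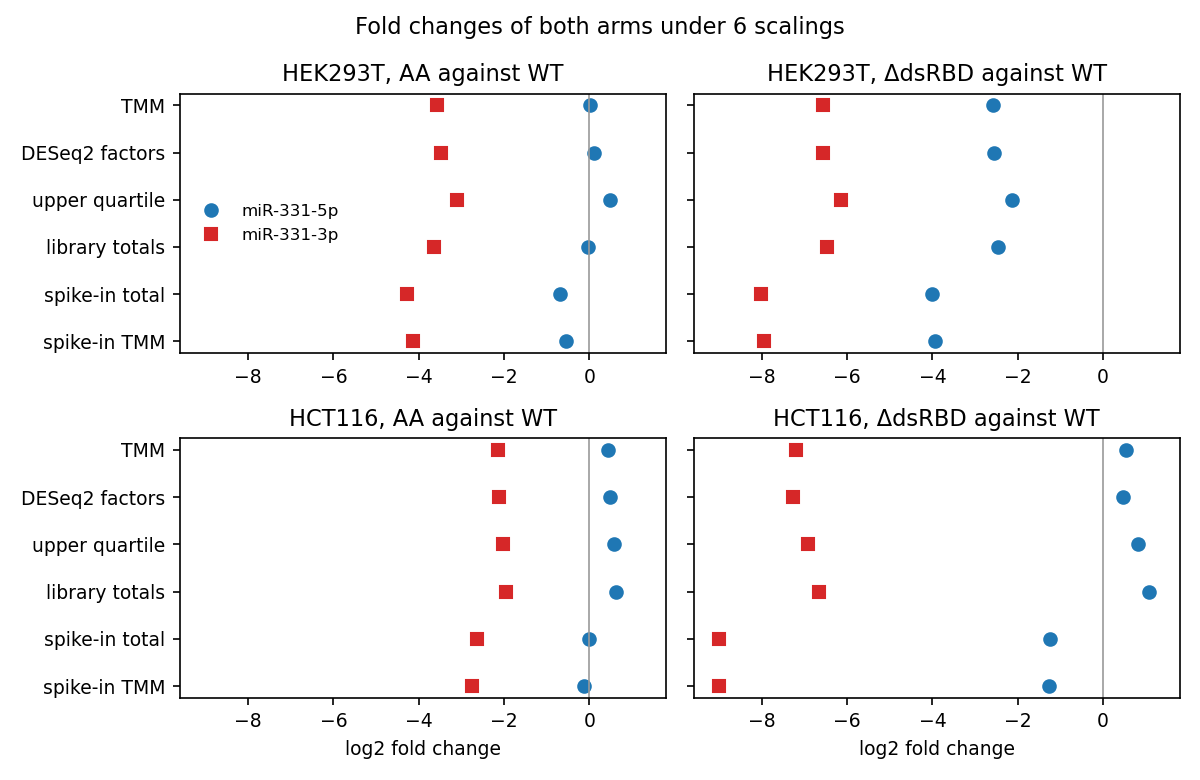
Log2 fold changes of miR-331-5p (blue circles) and miR-331-3p (red squares) for AA against WT (left) and ΔdsRBD against WT (right) under 6 scalings, in HEK293T (top) and HCT116 (bottom). The 3p arm is below 0 under each scaling, and in HCT116 with ΔdsRBD the 5p arm is at 0.54 by TMM and at −1.26 by spike-in TMM.

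Set on 1 scale over all 12 libraries, the hairpin was more abundant in HCT116. With WT miR-331-3p averaged 374 ± 36.6 CPM in HEK293T and 1574 ± 415 CPM in HCT116 on this scale, a log2 difference of −2.07 ± 0.23 (SE), and miR-331-5p averaged 74.7 ± 11.3 CPM in HEK293T and 159 ± 13.3 CPM in HCT116, a difference of −1.09 ± 0.20. With WT 41.2% of 844 names were called lower in HEK293T than in HCT116. Over the 6 groups miR-331-3p ran, from the highest, HCT116 WT, HEK293T WT, HCT116 AA (356 ± 35.8), HEK293T AA (34.4 ± 3.28), HCT116 ΔdsRBD (9.57 ± 1.18) and HEK293T ΔdsRBD (4.23 ± 4.60). HEK293T WT and HCT116 AA overlapped, and the other neighbours in this order did not. MiR-331-5p ran HCT116 AA (218 ± 11.2), HCT116 ΔdsRBD (213 ± 5.57), HCT116 WT, HEK293T AA (82.5 ± 3.67), HEK293T WT and HEK293T ΔdsRBD (14.1 ± 4.73). There the first 2 groups overlapped, as did HEK293T AA and HEK293T WT. Both orders hold on this TMM scale and depend on the scaling. Per 1000 spike-in reads miR-331-3p was higher in HCT116 AA (77.5 and 65.2) than in HEK293T WT (37.8 and 26.1). On that scale miR-331-5p was lower in HCT116 ΔdsRBD (17.3 and 19.3) than in HCT116 WT (36.3 and 51.1). It was also lower in HEK293T AA (4.47 and 3.29) than in HEK293T WT (6.30 and 6.22).

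The effects of the altered forms were also set against each other between the lines, in the fit over 12 libraries. The effect of ΔdsRBD on miR-331-5p was lower in HEK293T than in HCT116 by a log2 difference of −2.80 ± 0.34 (SE), and on miR-331-3p it differed by 0.96 ± 0.65. The effect of AA on miR-331-3p differed by −1.28 ± 0.33, and on miR-331-5p by −0.31 ± 0.28. For these differences between lines 12.4% of names were called lower and 22.4% higher for ΔdsRBD, and 2.96% lower and 0.948% higher for AA.

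Some miRNAs followed the 3p arm closely over the 12 libraries, with log2 CPM centred within each line. Of 189 names with at least 100 CPM with WT in both lines, the most alike were miR-455-3p (Pearson r = 0.98), miR-339-3p (0.97), miR-3615 (0.97), miR-151a-3p (0.96), miR-374b-5p (0.96) and miR-23b-3p (0.95). The median over these names was 0.64, and the points share libraries and scaling, so r is a description. The mean log2 CPM of miR-455-3p relative to WT was −1.66 with AA and −2.95 with ΔdsRBD in HEK293T, and −0.57 with AA and −3.91 with ΔdsRBD in HCT116. The names most like miR-331-5p, of 394 with at least 10 CPM, were miR-361-5p (0.96), miR-542-5p (0.96), miR-181b-5p (0.96) and miR-181b-3p (0.95), against a median of 0.15. The mean log2 CPM of miR-361-5p relative to WT was 0.02 with AA and −1.55 with ΔdsRBD in HEK293T, and 0.17 with AA and −0.13 with ΔdsRBD in HCT116. With ΔdsRBD in HCT116 miR-542-5p and miR-181b-5p were also slightly below WT, at −0.30 and −0.09, and miR-181b-3p was above it, at 0.89. MiR-331-5p was above WT there (log2 fold change 0.54 by edgeR), so a high r did not mean the same direction in each comparison.

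MiR-125a-5p and miR-125b-5p, which are also known to repress ERBB2, rose in 1 comparison where miR-331-3p was low, with ΔdsRBD in HEK293T. In HEK293T with ΔdsRBD miR-125b-5p rose to 9072 CPM, against 1761 CPM with WT (log2 fold change 2.37 ± 0.30, adjusted p = 3.8e-05 by edgeR over all names, n = 2 each). Scaled to the spike-ins this rise was smaller, at 0.98 by spike-in TMM (adjusted p = 0.0177 by edgeR) and 0.94 by the spike-in total. MiR-125a-5p also rose there (1.68 ± 0.29, adjusted p = 0.000351 by edgeR), but it was not called when scaled to the spike-ins (0.30).

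In HCT116 miR-125b-5p fell with ΔdsRBD (−1.01 ± 0.16, adjusted p = 0.000271 by edgeR) and with AA (−0.98 ± 0.16, adjusted p = 0.00411 by edgeR). With ΔdsRBD it was −2.78 when scaled to the spike-ins and −0.48, no longer called, with library totals. The call with AA was lost without AA replicate 1 (−0.98, adjusted p = 0.0685 by edgeR). MiR-125a-5p in HCT116 with AA was −0.52 ± 0.19 and not called (adjusted p = 0.137 by edgeR). It was called at about that value with no filter on low counts (−0.50, adjusted p = 0.0206 by edgeR), without WT replicate 2 (−0.55, 0.0392), without ΔdsRBD replicate 1 (−0.52, 0.00530) and without ΔdsRBD replicate 2 (−0.52, 0.00506), and at −1.09 by spike-in TMM. With ΔdsRBD in HCT116 miR-125a-5p was 0.03 ± 0.19 and not called. It was 0.57, not called, with library totals, and was called lower at −1.73 by spike-in TMM and at −0.45 without ΔdsRBD replicate 2 (adjusted p = 0.00737 by edgeR). In HEK293T with AA neither name was called, at 0.26 ± 0.28 for miR-125a-5p and −0.09 ± 0.29 for miR-125b-5p, and miR-125b-5p was called lower without AA replicate 1 (−0.83). By edgeR 35.9% of names were called higher with ΔdsRBD in HEK293T, and 34.1% lower with ΔdsRBD and 6.16% lower with AA in HCT116.

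The tables count reads per name and not per end, so a 3p product with a shifted start cannot be told apart from the annotated one, and no source used here says how such reads were assigned.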

How the data were processed

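AQ-seq is a small RNA library protocol made to reduce ligation bias. Per the labels' protocols, libraries were made from 100 µg of total RNA and sequenced on a NovaSeq instrument. The authors deposited raw read counts, 1 table per library, for miRNA names and 30 spike-in RNAs. The submitters' processing notes name cutadapt, BWA and bedtools and list hg38 and mm10 as builds, without saying what each was used for. No source used here gives the miRNA annotation or the treatment of reads matching several names.

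Library sizes excluded the spike-ins, whose share was 1.20% to 3.54% in HEK293T and 0.272% to 1.55% in HCT116. For each line, names passing filterByExpr (minimum count 10) were scaled by TMM and fitted with edgeR 4.0.16 (R 4.3.3) on group means over 6 libraries by the quasi-likelihood F test, two-sided, with Benjamini-Hochberg adjustment at 0.05. The SE of a difference in level is the absolute log2 difference divided by the square root of F. For the change of the log2 arm ratio, the SE comes from the variances between the 2 libraries of each group, without F. Arm use was fitted as the interaction of arm and form, blocked by library, over hairpins whose arms each reached 10 reads in 2 or more libraries. Line differences came from 1 fit over 12 libraries and 844 names. DESeq2 1.42.0 served as an alternative, ViennaRNA 2.7.2 folded the duplex, and figures used matplotlib 3.10.9. The fits were also run on simulated data, with planted changes smaller than those of miR-331-3p relative to WT, so that run does not cover changes of this size. Named miRNAs were those ranked next to miR-331 (3 either side), those most alike (6 and 4), names with a shared seed, and miR-125a-5p and miR-125b-5p; miR-3685 and the names sharing bases 2 to 7 were added after the files were read.

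The members and lists were chosen with earlier results of these data known. No label says whether the numbered libraries are separate cultures, so p-values measure only the spread between these libraries, which may be technical. Alternatives were other scalings, filters, a replicate block, fewer libraries and DESeq2.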

Additional observations from a re-analysis of the deposited data

Results flagged for a closer look

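MiR-331-5p with ΔdsRBD relative to WT moved in opposite directions in the lines on the TMM scale. Both ΔdsRBD libraries lay below both WT libraries in HEK293T (log2 fold change −2.57) and above both in HCT116 (0.54), which is why it is listed here. Of all tested names 46.5% were lower without overlap in HEK293T, and 40.3% were higher without overlap in HCT116. The share of names with both was not counted. Since the arm was chosen with these values known, the difference was not tested. Scaled to the spike-ins the values were −3.95 in HEK293T and −1.26 in HCT116, both lower with ΔdsRBD.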

How the results depend on the processing

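MiR-331-3p stayed below WT in 16 of 16 alternatives in each comparison with WT. With ΔdsRBD in HEK293T (−6.57) it was −7.95 by spike-in TMM, −8.01 by the spike-in total and −8.82 to −5.82 leaving out 1 library. With AA in HEK293T (−3.56) these were −4.12, −4.28 and −3.86 to −3.32, and −3.10 with upper-quartile factors. With ΔdsRBD in HCT116 (−7.20) they were −9.01, −9 and −7.58 to −6.97, and −6.66 with library totals. With AA in HCT116 (−2.15) they were −2.76, −2.62 and −2.40 to −1.86. MiR-331-5p in HCT116 turned to −1.26 (spike-in TMM) and −1.25 (spike-in total) with ΔdsRBD, and to −0.13 (spike-in TMM) with AA; in HEK293T it ranged over −4.00 to −2.14 with ΔdsRBD and −0.69 to 0.48 with AA. The cause was not tested. The log2 arm ratio stayed above WT in 8 of 8 alternatives, at 3.50 to 5.26 with ΔdsRBD and 3.33 to 3.84 with AA in HEK293T, and at 7.52 to 7.90 and 2.39 to 2.76 in HCT116, the same ranges as leaving out 1 library. For this ratio a replicate block must return the main value, as each form has both replicate numbers. Leaving out 1 library could not change its sign, because the groups did not overlap. The ranges thus describe size and are no test of direction. Names called with AA in HEK293T (134) were 241 by spike-in TMM, 292 by the spike-in total, 88 without WT replicate 1 and 54 without AA replicate 2. In HCT116 (59) they were 34 with upper-quartile factors, 198 and 186 by the same spike-in scalings, 10 without AA replicate 1 and 23 without AA replicate 2. Replicate numbers were not treated as pairs in the main fit. Differences between replicates 1 and 2 correlated between forms, over names, at 0.09, −0.07 and −0.03 in HEK293T and −0.05, −0.10 and 0.15 in HCT116. With 1 such difference per form, these values cannot decide whether replicate numbers mark shared cultures or batches. With the replicate block miR-331-3p was −6.55 with ΔdsRBD and −3.57 with AA in HEK293T, and −7.21 and −2.12 in HCT116. Depth limits the 3p arm with ΔdsRBD most, with 10 reads in HEK293T and 29 in HCT116.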
